A study of Mus musculus with 6 samples.

Results

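Th C-fibre low-threshold mechanoreceptors were selected among single dorsal root ganglion neurons of mice, sequenced as 3' single-cell RNA libraries. A cell was taken into the class when it held at least 3 unique molecular identifiers (UMIs, counted mRNA molecules) of Th, Fam19a4, Slc17a8 and Zfp521 together, from at least 2 of these 4 genes. It also had to hold fewer than 3 UMIs of Mrgprd and Lpar3 together, fewer than 2 of Mrgpra3 and fewer than 5 of Sst and Nppb together, genes of other C-fibre types. The rule selected 3232 of 21685 cells (14.9%), of which 3124 stayed after 2 were lost to a quality filter and 106 to doublet calls. Because cells were chosen by these 9 genes, every level of the class against other cells is a description and carries no test. Differences between groups of mice were not used by the rule and were tested.

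C-fibre low-threshold mechanoreceptors are unmyelinated sensory neurons of hairy skin that end around hair follicles and answer gentle, slow touch and cooling. They are named here after Th, which encodes tyrosine hydroxylase, the enzyme that makes the catecholamine precursor L-DOPA. Fam19a4 encodes TAFA4, a secreted protein, Slc17a8 the vesicular glutamate transporter VGLUT3, and Zfp521 a zinc finger transcription factor. Touch is transduced in these neurons by the ion channel Piezo2.

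The 6 mice formed 3 groups of 2, each with 1 female and 1 male. Mice 654 and 657 were Ttpa-/-, 6 months old and on a diet deficient in vitamin E. Mice 670 and 671 were Ttpa-/-, 6 months old and on a supplemented diet. Mice 698 and 699 were Ttpa+/+ (wild type), 5 months old and on a basal diet. Ttpa encodes the alpha-tocopherol transfer protein, the liver protein that retains vitamin E in the body. Only the wild type mice were 5 months old and on a basal diet. Age and basal diet therefore cannot be told apart from genotype in any comparison with wild type. Which part of Ttpa was deleted, the strain and the start of each diet are not stated in the labels. Ttpa UMIs in the class numbered 3, 1, 0, 1, 0 and 0 in mice 654, 657, 670, 671, 698 and 699 (the order kept below), so these 3' counts do not check the genotype.

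The class held 504, 547, 429, 502, 605 and 537 cells with 1786076, 3108116, 1608624, 2065080, 3514991 and 2718922 UMIs in these mice. The median cell held 3204.5 to 5339 UMIs, against 2547 to 5014 in all other neurons. Of the kept members, 943 carried UMIs of 2 of the 4 genes, 1446 of 3 and 735 of all 4. They held a median of 6 and at most 26 UMIs of these genes, and 449 cells sat at the minimum of 3. Of 21424 distinct barcodes, 261 occurred in 2 libraries and 0 in more, and 79 members carried such a barcode.

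To show the gene the class is named for, this is the stretch of 250 bases just upstream of the Th start in RefSeq's promoter table for GRCm38.p6 (chr7:142899996-142900245, minus strand), with the letters of a cAMP response element, TGACGTCA, in capitals.
Th promoter: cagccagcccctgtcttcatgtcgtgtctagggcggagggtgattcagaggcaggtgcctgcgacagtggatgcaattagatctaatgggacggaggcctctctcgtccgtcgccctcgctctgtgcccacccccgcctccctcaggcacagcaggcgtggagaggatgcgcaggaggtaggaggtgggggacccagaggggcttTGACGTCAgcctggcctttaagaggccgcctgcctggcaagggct
The match lies 45 to 38 bases before the start. The same letters, which read alike on both strands, occur in 508 of 32851 promoters of that table (1.55%). Gene positions below are from GENCODE's mouse annotation of the same assembly, and the submitters' processing notes name mm10.

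The 4 selecting genes were near absent from other neurons. Summed over the class and expressed per 1000000 UMIs (CPM), Th stood at 633, 539, 574, 483, 470 and 442 CPM in the 6 mice, against 5.16 to 14 CPM in other neurons. A Th UMI was seen in 72.4% to 80.3% of class cells and in 2.14% to 3.79% of other neurons. Th was higher in each Ttpa-/- mouse than in both wild type mice, with values from 483 to 633 CPM against 442 and 470. This order was not tested, since Th selects the cells by a fixed number of UMIs and depth differed among mice. Of all 9749 genes tested between groups, 6.07% had all 4 Ttpa-/- mice above both wild type mice. Fam19a4 ran from 493 to 580 CPM, Slc17a8 from 124 to 164 and Zfp521 from 289 to 331, each with Ttpa-/- and wild type mice overlapping. In Sst/Nppb neurons, an itch-related type, Th was at 1.17 to 3.22 CPM.

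The label was checked against 9 markers that the rule did not use, and 6 of the 9 were over 2-fold higher in the class in all 6 mice. Of all 9957 genes compared, 215 (2.16%) were that much higher and 576 (5.78%) that much lower, with a median log2 ratio of -0.08. All ratios of class to other neurons are log2 values with 5 CPM added, as mean ± SD over 6 mice. Rarres1, a retinoic-acid-responsive gene, was at 953, 872, 955, 814, 1027 and 766 CPM in the class and at 70.1 to 89.9 CPM in other neurons (3.37 ± 0.16). Cdh9, an adhesion molecule, had a ratio of 2.75 ± 0.27 and P2ry1, an ADP receptor, 2.91 ± 0.22. The transcription factor Pou4f2 (2.66 ± 0.40) and Gfra2, the neurturin co-receptor (2.10 ± 0.45), were also among the 6. The remaining 3 markers were higher by less: Runx1 by 0.97 ± 0.31, Cacna1h, a T-type calcium channel, by 0.87 ± 0.25, and Ret, the signalling receptor that pairs with Gfra2, by 0.83 ± 0.20.

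Pooled over mice, members just inside the threshold carried less Rarres1 and more Piezo2, P2ry1 and Calca than members with many selecting-gene UMIs. The 449 cells with 3 UMIs of the selecting genes had Rarres1 at 644 CPM and Calca, the CGRP neuropeptide gene of peptidergic nociceptors, at 187 CPM. The 644 cells with 10 or more had Rarres1 at 1170 CPM and Calca at 14 CPM. Between these 2 sets of cells Piezo2 went from 971 to 713 CPM, P2ry1 from 773 to 629 CPM and Cdh9 from 40.6 to 40.0 CPM. Their median depth was 3113 and 7036.5 UMIs. Mice 657 and 698 gave 176 and 211 of the 644 cells, and mice 654 and 670 gave 45 and 48. Of the 583 Calca UMIs of the class, 291 lay in 13 cells of mouse 699 with 5 or more Calca or S100b UMIs. Those 13 cells held a median of 3 selecting-gene UMIs. The part of depth, mouse or those cells in these differences was not tested. Just outside, 338 cells with 2 UMIs from 2 genes had Rarres1 at 522 CPM and Calca at 184 CPM. The 11598 cells with no such UMI had Rarres1 at 57.4 CPM and Calca at 2759 CPM. Cells just outside the rule thus carried its markers too. The 3 exclusions removed few cells: 4 by Mrgprd and Lpar3, 2 by Mrgpra3 and 0 by Sst and Nppb.

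**Figure D1:**
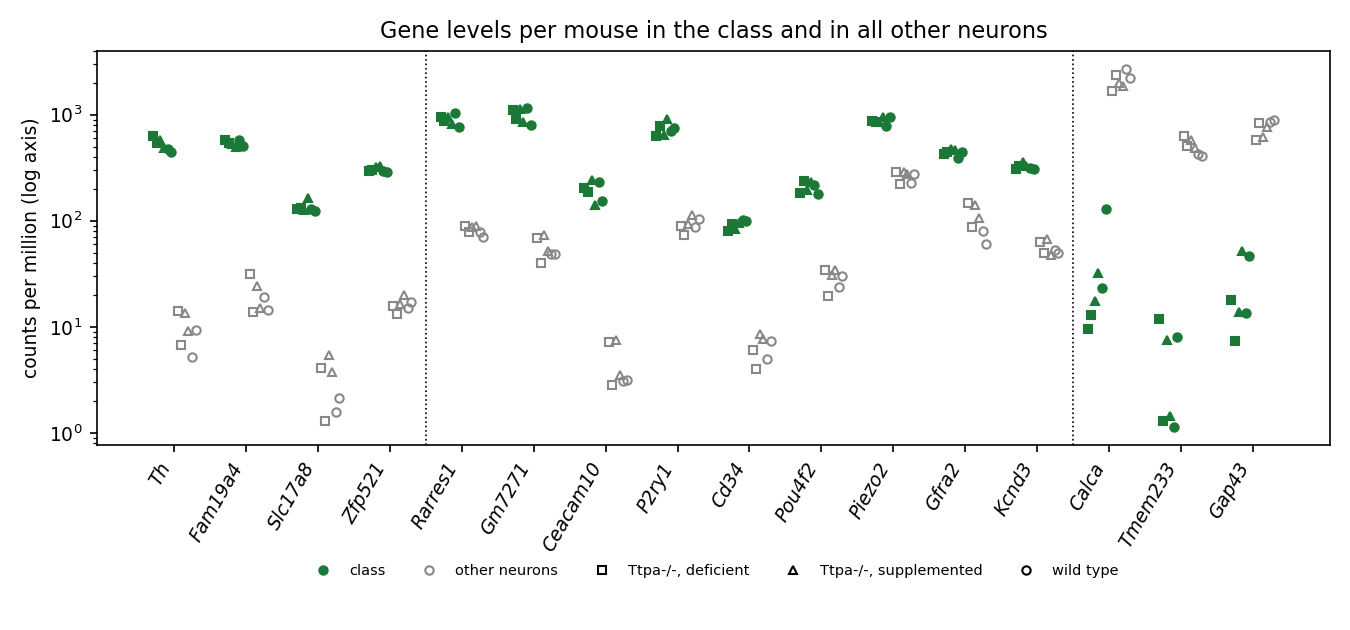
Level of each gene in CPM on a log axis, 1 point per mouse, in the class (filled) and in all other neurons (open), with symbols for the 3 groups. The 4 selecting genes stand left of the first dotted line and genes lower in the class right of the second. Th lies between 442 and 633 CPM in the class and between 5.16 and 14 CPM in other neurons.

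The 25 genes with the highest ratios were led by Ceacam10, Wfdc2 and Gm7271. Ceacam10 (chromosome 7, 24777206 to 24784657), a carcinoembryonic-antigen-related adhesion gene, was at 202, 186, 242, 142, 230 and 154 CPM against 2.81 to 7.54 CPM in other neurons (4.38 ± 0.30). Yet a Ceacam10 UMI was found in only 22.9% to 35.9% of class cells. Wfdc2 (chromosome 2, 164562413 to 164568510), which encodes a secreted protein with a protease-inhibitor fold, reached 285 to 348 CPM (4.21 ± 0.37). Gm7271, a predicted gene (chromosome 5, 76484040 to 76516649), reached 794 to 1159 CPM (4.06 ± 0.26) and was seen in 82.3% to 90.4% of class cells. No mouse of the class overlapped any mouse of other neurons for these 3 genes, which choosing genes by their ratio largely sets in advance.

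Some of the other genes of that group encode surface or secreted proteins. Cd34, a sialomucin best known from blood stem cells and vessels, was at 80.1 to 102 CPM in the class and 4.04 to 8.62 CPM elsewhere (3.10 ± 0.29). The chemokine Ccl1 had a ratio of 3.05 ± 0.18, the cholecystokinin receptor Cckar 2.90 ± 0.23, and the axon-guidance ligand Sema3e 2.54 ± 0.26. Spink2, a serine protease inhibitor of the Kazal type, had a ratio of 3.37 ± 0.23. Fxyd6, a regulator of the sodium pump, was at 478 to 591 CPM against 52.8 to 67.7 CPM (3.02 ± 0.21).

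Others encode intracellular proteins. Cdkn1a, which encodes the cyclin-dependent kinase inhibitor p21, was at 262 to 470 CPM (2.95 ± 0.13). The actin-severing gene Scin (2.85 ± 0.22), Bok of the BCL2 family (2.73 ± 0.23) and Rasgrp1, a Ras activator (2.23 ± 0.36), followed. Among transcriptional regulators, Bhlha9 (2.99 ± 0.44), Tox3 (2.84 ± 0.17) and Id4 (2.55 ± 0.09) were in the group. Others were Nxpe2, Gm11549, Iqsec2, Kcnd3 and Sorbs2, with ratios from 2.38 to 2.81.

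The enzymes and transporters that would carry L-DOPA onward were almost without counts. Ddc, which encodes the decarboxylase that turns L-DOPA into dopamine, had 1 UMI in the whole class, in mouse 699 (0.368 CPM). Dbh, Pnmt and the plasma-membrane transporters Slc6a2 and Slc6a3 had 0 UMIs in all 6 mice, which allows up to 0.853 to 1.86 CPM in a mouse (3 counts of its total, for counting error only). The vesicular monoamine transporter Slc18a2 had 0, 2, 0, 1, 0 and 2 UMIs. Gch1, the first enzyme of the tetrahydrobiopterin cofactor that tyrosine hydroxylase needs, had 4, 1, 2, 0, 1 and 1 UMIs, at most 2.24 CPM against 5.58 to 8.73 CPM in other neurons. Later cofactor enzymes were present, Pts at 80.5 to 117 CPM and Qdpr at 82.3 to 120 CPM, and the degrading enzyme Maoa was higher than in other neurons by 1.20 ± 0.16. Of the 14 genes of this list outside the rule, 4 had no count in the class and 6 reached 5 CPM in either population. Among those 6, 0 were over 2-fold higher or lower in all 6 mice. The 5 CPM added to each side shrinks ratios at levels as low as those of Gch1.

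Glutamate was represented by more than VGLUT3. Slc17a6, the vesicular transporter VGLUT2, stood at 247 to 282 CPM, close to other neurons (0.17 ± 0.07). Slc17a7, VGLUT1, was at 0.622 to 7.72 CPM against 34.6 to 88.1 CPM (-2.87 ± 0.40).

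Of 17 touch-channel genes, Piezo2 was the member that was over 2-fold higher. It was at 868, 860, 854, 955, 775 and 957 CPM in the class and at 224 to 291 CPM in other neurons (1.72 ± 0.14), with the 2 sets of mice apart. Tmem63a, Asic3, Kcnk2 and Kcnk18 were over 2-fold lower. Kcnk2, the mechanosensitive potassium channel TREK-1, had a ratio of -2.47 ± 0.18.

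Voltage-gated channels split by gene. Cacna1i, the T-type calcium channel Cav3.3, was at 62.1, 45.0, 57.8, 57.6, 41.8 and 50.4 CPM in the class and at 0.958 to 4.05 CPM elsewhere (3.02 ± 0.08). Scn3a, the sodium channel Nav1.3, was higher by 1.73 ± 0.27 and Kcnd3, the A-type potassium channel Kv4.3, by 2.46 ± 0.17. Scn10a, the nociceptor sodium channel Nav1.8, was lower (-1.27 ± 0.17), yet present at 53.7 to 60.5 CPM. The L-type channel Cacna1c was at 1.12 to 3.13 CPM (-2.48 ± 0.13). Of 22 sodium and calcium channel genes, 2 were higher and 3 lower over 2-fold in all 6 mice, and of 21 potassium and HCN channel genes, 1 was higher and 5 were lower.

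Most growth-factor receptors were not higher in the class. Of 10 such genes, Gfra2 was over 2-fold higher at 392.3 to 475 CPM, while 5 were over 2-fold lower, among them Gfra1, Gfra3, Ntrk2 and Ngfr.

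Among 23 sensory transcription factors outside the rule, Pou4f1, Pou4f2, Tlx3 and Casz1 were over 2-fold higher and 7 were lower. Pou4f1, which encodes the pan-sensory factor Brn3a, stood at 1004 to 1292 CPM against 369 to 404 CPM (1.49 ± 0.12). Runx3, a factor of proprioceptors, had counts in 1 mouse of the class only (0.643 CPM in mouse 657). Runx1 and Isl1 were present at 357 to 425 CPM and 308 to 348 CPM.

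Genes of other sensory types were low. Of the 14 peptidergic genes 10 were over 2-fold lower, of the 16 large myelinated neuron genes 11, of the 8 Mrgprd-type genes outside the rule 5, and of the 9 itch genes outside the rule 6, with 0 higher in each list. Calca had the lowest ratio of all (-6.12 ± 1.12), at 9.52, 12.9, 17.4, 32.0, 23.0 and 129 CPM against 1690 to 2717 CPM. The value in wild type mouse 699 was 4 or more times that in each other mouse. Tmem233 (-5.75 ± 0.57), Ly86 (-4.99 ± 0.43), Gap43, an axon growth gene (-4.88 ± 0.86), Scg2, a granule protein gene (-4.85 ± 0.31), and Basp1 (-4.76 ± 0.63) were also among the 10 lowest, with Tmem255a, Gna14, Etv1 and Hs6st2. Tac1, the substance P gene, was lower by less (-0.95 ± 0.34), at 232 to 448 CPM. Trpv1, the heat and capsaicin channel, had 0 to 9 UMIs in a mouse.

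Of 17 genes of inhibitory and opioid receptors, 4 were over 2-fold lower and 1 higher. The cannabinoid receptor Cnr1 (-3.19 ± 0.26), Npy1r, Npy2r and Adra2c were the 4 lower ones. The opioid receptor genes Oprd1, with 0 UMIs in all 6 mice, and Oprm1, at 0 to 1.10 CPM, were near or at 0. Neither was among the 4 genes over 2-fold lower than in other neurons.

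Some genes usually read as markers of other cells were high in the class. Pmp22, a myelin gene, was at 1177 to 1347 CPM against 378 to 517 CPM (1.52 ± 0.14), and Mbp at 114 to 147 CPM against 17.9 to 43.0 CPM (2.16 ± 0.46). The Schwann genes Prx (0 to 2.49 CPM) and Cldn19 (0 to 1.45) were not over 2-fold higher. Of 7 endothelial genes only Egfl7 was over 2-fold higher, at 112 to 144 CPM, while Cdh5 and Pecam1 were at 0 to 1.10 and 0.484 to 2.49 CPM. The 9 satellite glia genes summed to 334 to 821 CPM in the class and 475 to 918 CPM in other neurons.

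Among lipid, antioxidant and stress genes, Pltp, a phospholipid transfer protein (2.11 ± 0.16, 18.2 to 25.8 CPM), Akr1b3, aldose reductase (2.01 ± 0.14), and the small heat-shock gene Hspb1 (1.63 ± 0.29), were over 2-fold higher. Gpx3, the secreted glutathione peroxidase, was lower (-3.77 ± 0.40). Of 33 antioxidant genes it was the sole member past 2-fold, and of 25 cholesterol synthesis genes 0 were.

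Genes with the level pattern most like the 4 selecting genes were Gm11549 (Pearson r = 0.977), Bok (0.976), Pou4f1 (0.975), Fst (0.975) and Hcrtr2 (0.973). The likeness was taken over 30 sums, 5 neuron populations in each of 6 mice, so sums of 1 mouse share a library. The class, selected by these same 4 genes, is 1 of the 5 populations. Genes high in the class thus gain a high r from the rule, and these values are a description. As a whole, the class profile correlated with that of the unassigned rest of the neurons at 0.770 to 0.811 over mice. The values were 0.738 to 0.763 with Mrgprd/Lpar3 neurons, 0.699 to 0.732 with Mrgpra3 neurons and 0.605 to 0.622 with Sst/Nppb neurons.

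Within the class, a few genes varied among cells far more than the rest. The measure was overdispersion, the variance beyond counting noise over the squared mean, whose median was 0.082 for 1261 genes. It was 10.8 for Apoe, the apolipoprotein E gene, 3.69 for Pcp4, a calmodulin regulator, and 3.63 for Abhd2, a lipid hydrolase. Pam, the enzyme that amidates neuropeptides, followed at 2.84, Ceacam10 at 2.60, Spry2, an inhibitor of growth factor signalling, at 1.88 and beta-actin gene Actb at 1.63. Prrxl1, Dbi and Marf1 completed the 10, at 1.54, 1.32 and 1.17. The marker Rarres1 was at 0.194 (position 235 of 1261).

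Among cells of 1 mouse, some of these genes formed 2 correlated sets, while Pcp4, Ceacam10 and Prrxl1 belonged to neither. Actb, Pam, Abhd2, Spry2 and Marf1 were correlated, with median correlations over mice of 0.47 to 0.67. Actb and Abhd2, for example, correlated at 0.551 to 0.757 in the 6 mice, and at 0.544 to 0.689 among other neurons. Apoe, Fabp7 and Dbi formed the other set, with Apoe and Fabp7 at 0.425 to 0.795. Apoe and Fabp7, a fatty-acid-binding protein gene, are satellite glia genes. Correlations between the sets were near 0, from -0.08 to 0.00 in the median. They are descriptions over 429 to 605 cells a mouse that share a library and its depth.

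**Figure D2:**
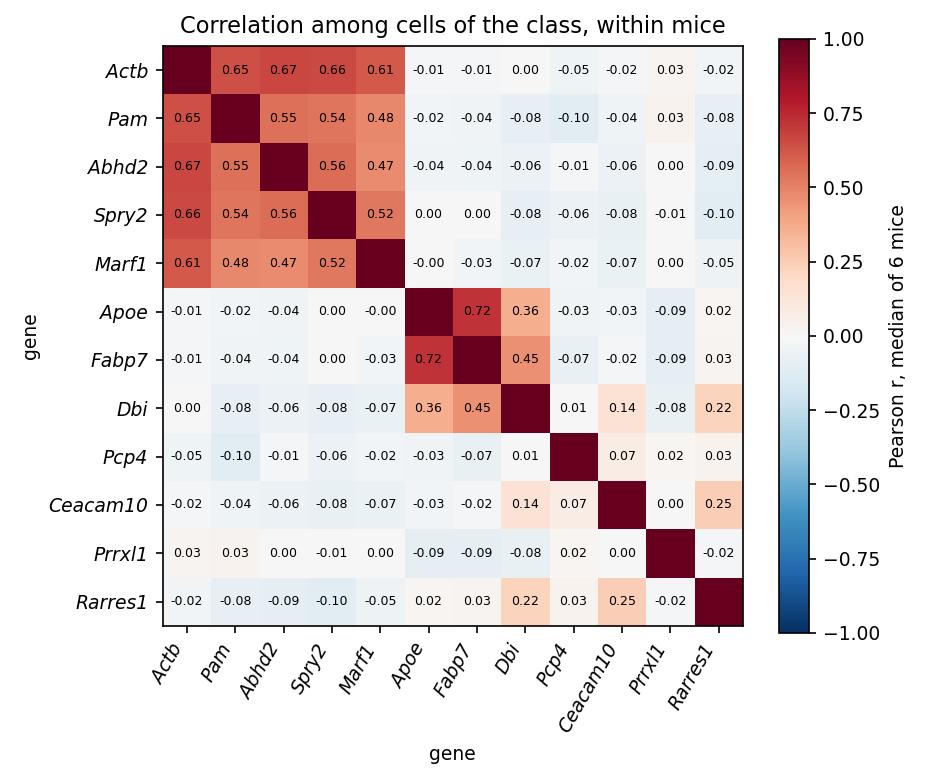
Pearson correlation of log2(UMIs per 10000 + 1) between pairs of genes among cells of the class, as the median of 6 mice, for the 10 most variable genes with Fabp7 and Rarres1. Actb, Pam, Abhd2, Spry2 and Marf1 form one block (0.47 to 0.67) and Apoe, Fabp7 and Dbi the other (0.36 to 0.72).

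Cells with much Actb were then described, a step chosen after the data were seen. Per 10000 UMIs, the median cell held 29.2, 28.0, 29.2, 33.2, 25.4 and 21.4 Actb UMIs in the 6 mice. The upper tail was long, as 1 cell in 10 held at least 193, 203, 148, 253, 103 and 95.5, with both wild type mice lowest. Cells at 120 per 10000 or more are called Actb-high here. The name marks a range of Actb levels: 420 of 3124 cells (13.4%) lay at 120 or above, and 165 lay between 100 and 150. Whether these cells form a separate type was not tested.

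**Figure D3:**
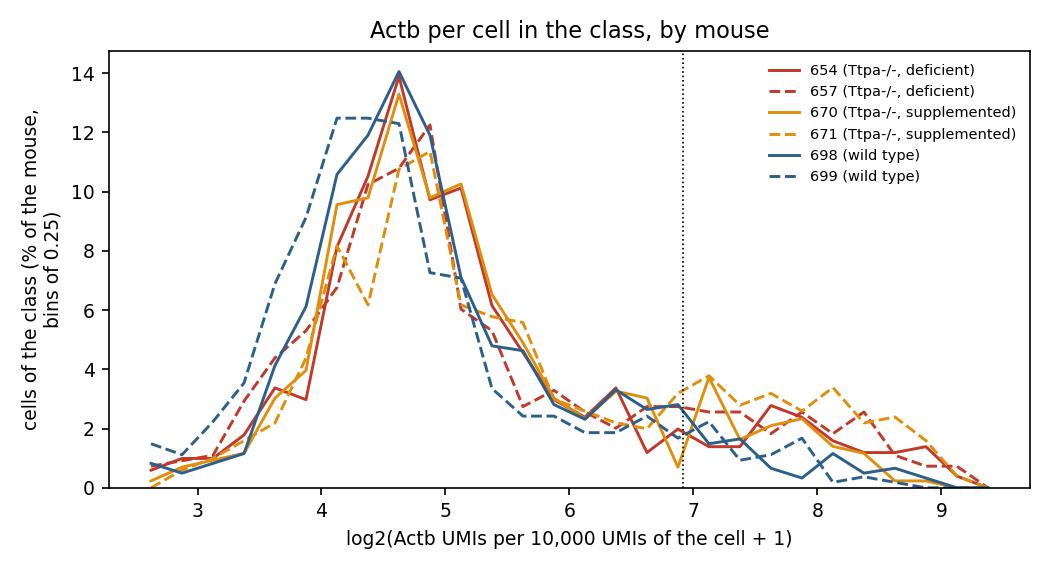
Share of class cells (%) in bins of log2(Actb UMIs per 10000 + 1), 1 line per mouse, with the dotted line at 120 per 10000. The highest 10% of cells begin at 103 and 95.5 per 10000 in wild type mice and at 148 to 253 in Ttpa-/- mice.

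Actb-high cells were more frequent in each Ttpa-/- mouse than in both wild type mice. Their share of the class was 13.9% and 17.2% in the deficient mice, 13.1% and 23.5% in the supplemented mice and 7.11% and 7.26% in the wild type mice. The means were 15.5% ± 2.33 (SD, n = 2), 18.3% ± 7.39 (SD, n = 2) and 7.19% ± 0.110 (SD, n = 2). Groups with and without Ttpa did not overlap, and deficient and supplemented mice did. The order held at a threshold of 80 per 10000 (18.3% to 28.9% against 14% and 11.5%) and of 180 (7.46% to 15.7% against 3.64% and 3.54%). It also held with each cell thinned to 1500 UMIs (13.6% to 23.8% against 8.10% and 7.26%). No p is given, since the split was made after these values were in view.

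Other neurons held Actb-high cells too. In all of them together the shares were 15.1%, 16.0%, 13.6% and 20.5% in Ttpa-/- mice and 11.6% and 7.54% in wild type mice. In Mrgprd/Lpar3 neurons they were 11.5% to 17.9% against 8.26% and 6.11%. In Mrgpra3 neurons they were 16.8% to 25.6% against 12.4% and 5.63%. In Sst/Nppb neurons the wild type mouse 698 (10.4%) lay just under the supplemented mouse 670 (10.7%).

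**Figure D4:**
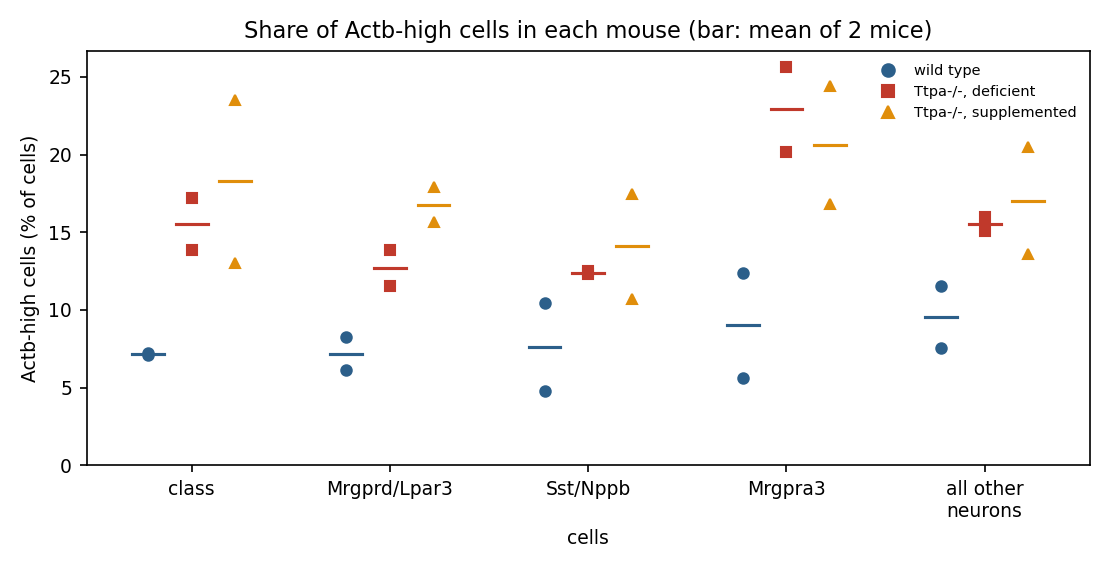
Share of Actb-high cells (% of cells, linear axis from 0) in the class, 3 other neuron populations and all other neurons, 1 point per mouse, with a bar at the mean of the 2 mice of a group. In the class the wild type mice sit at 7.11% and 7.26% and the Ttpa-/- mice between 13.1% and 23.5%.

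Actb-high cells of the class differed from the rest in 40 genes, all higher. These were over 2-fold higher in all 6 mice among 2763 genes compared (1.45%), while 0 were over 2-fold lower (0.0%). Of the 40, 36 were likewise higher in the Actb-high cells among other neurons. Abhd2 was at 954 to 1539 CPM in Actb-high cells and 93.3 to 138 CPM in the rest (3.38 ± 0.30), and Pam at 2106 to 3261 CPM against 295 to 360 CPM (3.03 ± 0.27).

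Hsf2, a heat-shock transcription factor among the 15 genes with the highest ratios, had a ratio of 3.00 ± 0.30, Bhlhe41, a clock-linked repressor, 2.35 ± 0.20, and Cbx3, a heterochromatin protein, 2.25 ± 0.21. The histone demethylase Kdm6b (2.40 ± 0.31), the RNA demethylase Alkbh5 (2.15 ± 0.20), the RNA-binding genes Rbm15 (2.55 ± 0.26) and Marf1 (2.166 ± 0.22), and Zscan26 (2.03 ± 0.20) were there too. The others were Spry2 (2.75 ± 0.12), Rpgrip1 (2.74 ± 0.50), the kinase Pim1 (2.42 ± 0.22), the sterol sensor Insig1 (2.36 ± 0.28) and the exchanger Slc24a5 (2.11 ± 0.19).

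Markers of the class outside the rule differed little across this split. The log2 ratio was -0.20 ± 0.12 for Rarres1, 0.07 ± 0.14 for P2ry1 and 0.02 ± 0.11 for Piezo2. It was 0.08 ± 0.31 for Gfra2 and -0.27 ± 0.36 for Cdh9. Th was at 355 to 690 CPM in Actb-high cells and 446 to 624 CPM in the rest (-0.17 ± 0.25). Cells on both sides were selected with Th, so its likeness is partly set by the rule. The median UMIs of Actb-high and other cells were 3292 and 3194.5 in mouse 654, and 4569 and 5440.5 in mouse 698, the widest gap. Satellite glia genes summed to 249 to 599 CPM in Actb-high cells and 337 to 914 CPM in the rest, macrophage genes to 0 to 7.93 against 1.91 to 42.4 CPM.

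Comparing the groups by their summed counts asked whether the diet or the genotype changed expression in this class. The edgeR quasi-likelihood test over 9749 genes, with Benjamini-Hochberg adjustment, called 0 genes (0.0%) in each of 4 contrasts, and limma-voom called 0 as well. Unadjusted p was under 0.05 for 213 genes (2.18%) between deficient and wild type, 282 (2.89%) between supplemented and wild type, 203 (2.08%) between deficient and supplemented mice and 241 (2.47%) between the 4 Ttpa-/- and the 2 wild type mice. The genes with higher values made up 1.12%, 1.77%, 0.841% and 1.42% of all genes and those with lower values 1.07%, 1.12%, 1.24% and 1.06%. DESeq2 called 0, 2, 0 and 2 genes in these contrasts, Abhd2 and Pam in both cases, higher in Ttpa-/- mice. With no low-count filter edgeR called 17, 38, 7 and 44, and leaving out a mouse gave up to 7, 16, 9 and 14. All contrasts with wild type share the same 2 control mice. Values below are log2 fold changes ± standard error from edgeR.

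Kdm6b and Slc39a1 had the smallest p in supplemented and in all Ttpa-/- against wild type mice, without passing. Kdm6b was at 34.2, 31.2, 41.7, 58.1, 15.9 and 22.1 CPM. Slc39a1, the zinc importer ZIP1, was at 15.7, 13.8, 19.9, 23.7, 6.83 and 6.99 CPM. All 4 Ttpa-/- mice lay above both wild type mice for each gene, as they did for 6.07% of all 9749 genes. Genes here and below were named for a small p, so this order adds no support. Between supplemented and wild type mice the values were 1.38 ± 0.24 and 1.63 ± 0.28, both with an edgeR adjusted p of 0.125. Between all Ttpa-/- and wild type mice they were 1.07 ± 0.21 and 1.33 ± 0.25, both with an edgeR adjusted p of 0.324.

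Pam stood at 737, 709, 693 and 1035 CPM in Ttpa-/- mice and 418 and 449 CPM in wild type mice (0.83 ± 0.18, edgeR adjusted p = 0.348). Abhd2 stood at 292, 263, 280 and 457 CPM against 149 and 184 CPM (0.91 ± 0.19, edgeR adjusted p = 0.338). Neither gene's groups overlapped (6.07% of all genes had all 4 Ttpa-/- mice above both wild type mice), and mouse 671 was highest for both.

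Timmdc1, an assembly factor of respiratory complex I, was at 17.9, 21.6, 14.3, 21.8, 8.82 and 5.88 CPM (1.31 ± 0.27 between Ttpa-/- and wild type mice, edgeR adjusted p = 0.324). Wdfy1, an endosomal protein gene, was at 17.4, 36.7, 23.0, 24.7, 8.53 and 12.1 CPM, a difference of 1.43 ± 0.32 between deficient and wild type mice (edgeR adjusted p = 0.942). In both genes every Ttpa-/- mouse lay above both wild type mice, as in 6.07% of all genes. In other neurons the same Wdfy1 difference was 1.79.

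The lower side was led by Calca and Tspan8. Calca was lower in deficient than in wild type mice by -2.72 ± 0.57 (edgeR adjusted p = 0.942), and Tspan8, a tetraspanin gene, by -1.73 ± 0.38 (edgeR adjusted p = 0.942). Tspan8 was at 7.84, 13.2, 11.2, 16.0, 20.8 and 51.9 CPM. Both were highest in mouse 699, where 2 cells held 190 and 79 of its 351 Calca UMIs. Without mouse 699 the Calca difference was -1.03 and the Tspan8 difference -0.95.

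Between the diets, within Ttpa-/- mice, the 5 smallest p belonged to Ccl4, Lgals3, Syngr2, Rpia and Banp, each with an edgeR adjusted p of 1. Ccl4, a chemokine gene, had 6 and 0 UMIs in deficient and 24 and 28 in supplemented mice. Lgals3, galectin-3, was at 17.4 and 8.69 against 4.35 and 3.39 CPM (1.67 ± 0.45). Syngr2, Rpia and Banp were each under 16 CPM in all 6 mice.

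The 40 genes of the Actb-high cells shared a direction in these contrasts. All 40 had positive values in the Ttpa-/- against wild type contrast, with a median of 0.53, against 47.2% positive and a median of -0.01 over all 9749 genes. Of the 40, 27 had an unadjusted p under 0.05 (2.47% of all genes) and 0 were called. In 29 of the 40, all 4 Ttpa-/- mice lay above both wild type mice, against 6.07% of all genes. With the Actb-high cells left out, 28 of the 40 were positive, the median was 0.07 and 2 had an unadjusted p under 0.05. For Pam the difference then was 0.04 ± 0.14 and for Abhd2 0.06 ± 0.15, while for Kdm6b it was 0.45 ± 0.24. Slc39a1 and Timmdc1 were not among the genes compared for the 40, since neither reached 50 CPM in every mouse on either side of the split. Their ratios of Actb-high cells to the rest were 2.64 ± 0.54 and 2.08 ± 0.71. With the Actb-high cells left out, their differences were 0.20 ± 0.41 and 0.55 ± 0.32. In all other neurons 39 of the 40 were positive, with a median of 0.38 and 29 with an unadjusted p under 0.05 (5.22% of 13121 genes). The 40 genes were chosen in these same cells, so these counts describe them and test nothing.

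**Figure D5:**
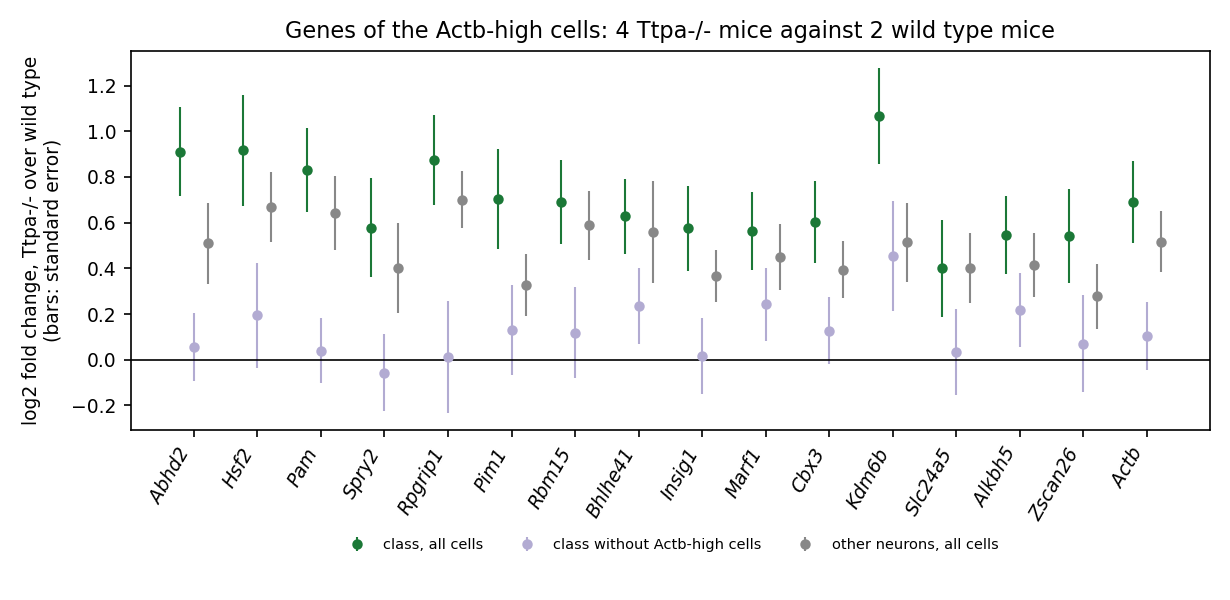
Log2 fold change between 4 Ttpa-/- and 2 wild type mice (points) with its standard error (bars) for the 15 leading genes of the Actb-high cells and Actb, in the whole class, in the class without Actb-high cells and in all other neurons. Pam goes from 0.83 in the whole class to 0.04 without those cells, and Abhd2 from 0.91 to 0.06.

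Each diet was also set against wild type for these 40 genes. In deficient against wild type mice 40 of 40 were positive with a median of 0.47, and in supplemented against wild type mice 40 of 40 with a median of 0.55, both sharing the wild type mice. In the class, 21 and 26 of the 40 had an unadjusted p under 0.05, and in other neurons 24 and 23, where 4.95% and 3.99% of all genes had one. Between deficient and supplemented mice 10 of 40 were positive, with a median of -0.12, and 1 had such a p. In other neurons 0 of the 40 had one in that contrast, against 2.84% of all genes.

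No marker of the class passed in any contrast. For the 9 markers outside the rule the medians were -0.04, 0.05 and -0.01 against wild type for deficient, supplemented and all Ttpa-/- mice, and 0 of 9 had an unadjusted p under 0.05. Between all Ttpa-/- and wild type mice Rarres1 gave -0.04 ± 0.17 and Piezo2 -0.01 ± 0.16 (both with an edgeR adjusted p of 1). The 18 sodium and calcium channel genes tested had a median of 0.01 and 0 with an unadjusted p under 0.05. Of the 17 potassium and HCN channel genes 1 had such a p, Kcns3, a modulatory subunit at 0.560, 1.29, 1.24, 0.968, 4.84 and 5.15 CPM (-2.23 ± 0.52, edgeR adjusted p = 0.484).

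Lists linked to vitamin E had medians near 0. In the same contrast the 10 vitamin E and lipid transport genes tested had a median of 0.07, the 29 antioxidant genes -0.03, the 13 lipid peroxidation genes 0.03 and the 24 cholesterol synthesis genes 0.02, with 0 called. Members with an unadjusted p under 0.05 numbered 1, 0, 0 and 1. These were Apoe and Insig1, the latter at 98.5, 111, 99.5 and 151 against 83.9 and 65.8 CPM (0.57 ± 0.18, edgeR adjusted p = 1). The 13 mitochondrially encoded genes were all negative, with a median of -0.26, and mt-Atp8 alone had an unadjusted p under 0.05. Their sum, 28596 to 44707 CPM in Ttpa-/- and 44124 and 45601 CPM in wild type mice, overlapped between the groups.

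Satellite glia genes had higher values in Ttpa-/- mice within this neuron class. Of 6 satellite glia genes tested, 6 were positive between Ttpa-/- and wild type mice, with a median of 0.93 and 5 with an unadjusted p under 0.05, all higher, and 0 were called. Over all genes 47.2% were positive and 1.42% were higher with such a p. Schwann genes leaned the same way: of 6 tested, 5 were positive, with a median of 0.36, 3 were higher with such a p and 0 were called. Apoe was at 247, 199, 219, 431, 168 and 147 CPM (0.73 ± 0.22, edgeR adjusted p = 1), and Fabp7 was at 87.3, 78.5, 66.5, 183, 62.3 and 50.8 CPM. The 9 satellite glia genes summed to 423 to 821 CPM in Ttpa-/- and 385 and 334 CPM in wild type mice, with no member at 0 throughout, though the defining markers Kcnj10 and Cdh19 were at 0.57 to 2.91 and 0.64 to 3.87 CPM. In other neurons the sum of the same 9 genes overlapped between the groups, at 475 to 918 CPM in Ttpa-/- and 624 and 484 CPM in wild type mice. The part of glial transcripts in other differences was not tested.

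Globin transcripts, of red blood cells, followed libraries rather than groups. Hbb-bs had 76, 1, 164, 1, 4 and 2 UMIs, high in 1 mouse of each Ttpa-/- group and low in the other. Hba-a1 behaved alike, though reads of Hba-a1 and Hba-a2, near-identical copies, cannot be told apart with certainty. Car8, a carbonic anhydrase-related gene, had 0 UMIs in the 4 Ttpa-/- mice and 2 in each wild type mouse, too few for a comparison in this class.

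Whether a group difference in the class differed from that in all other neurons was tested as an interaction over 12549 genes with the mouse as a block. The edgeR quasi-likelihood test called 0 genes (0.0%) for deficient and for supplemented against wild type mice and between the diets, with 586, 473 and 364 genes at an unadjusted p under 0.05, and 1 gene (0.00797%) for all Ttpa-/- against wild type mice. That gene was S100b, a calcium-binding protein gene of large neurons and glia. It was at 28.6, 36.7, 47.9, 60.5, 43.8 and 177 CPM in the class. The difference between Ttpa-/- and wild type mice was -1.39 in the class and -0.36 in other neurons, an interaction of -0.94 ± 0.16 (edgeR adjusted p = 0.0371). Few cells held most of these counts: 34 class cells with 5 or more S100b UMIs held 911 of the 1002 S100b UMIs, and 10 of those cells in mouse 699 held 466. Without mouse 699 the interaction was -0.50 and not called (edgeR adjusted p = 0.637).

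The next gene, Klhl5, an actin-linked adaptor, went in opposite directions. It was at 31.4, 29.6, 29.8, 32.9, 44.1 and 35.7 CPM in the class (-0.41 between Ttpa-/- and wild type mice) and at 89.0, 70.2, 78.8, 68.6, 65.4 and 43.3 CPM in other neurons (0.47). In both populations the Ttpa-/- mice lay on 1 side of both wild type mice, in a gene named for its small interaction p. The interaction was -0.87 ± 0.16 and did not pass (edgeR adjusted p = 0.0766). Thy1 (-1.03 ± 0.21, edgeR adjusted p = 0.154) and Tspan8 (-1.37 ± 0.30, edgeR adjusted p = 0.268) had their highest class value in mouse 699, as S100b did, at 69.1 and 51.9 CPM.

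For the share of cells in the class, an exact permutation test with this number of mice cannot reach the 0.05 threshold. The share was 12.7% and 19.6% in deficient, 10.9% and 13.7% in supplemented and 18.2% and 16.1% in wild type mice. Both supplemented mice lay below both wild type mice, a difference of -4.83 percentage points with an exact permutation p (two-sided) of 0.333, the smallest that 2 against 2 mice allow. The deficient mice overlapped both other groups. All Ttpa-/- against wild type mice gave an exact permutation p of 0.40, where the smallest possible is 0.0667. Because the rule needs UMIs, the share moves with depth: thinned to 1500 UMIs a cell, it was 6.58%, 7.49%, 5.66%, 5.46%, 7.21% and 5.66%. Thinning left out 617 cells of mouse 654, 981 of mouse 670, 27 of mouse 671 and 0 of the others.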

How the data were processed

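The values used are the UMI counts per gene and cell that the authors deposited as 1 table of 27998 genes and 21685 cells, with the mouse number in each cell's label. Per the labels' protocols these are 3' v2 droplet libraries. Cell Ranger 2.0.1, bcl2fastq 2.17.1.14, Seurat 2.3.0, limma 3.32.10 and mm10 are named in the submitters' processing notes, and the sources used here do not say how cells were selected.

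A quality filter kept cells with at least 500 genes and no more than 20% of UMIs from mitochondrial genes (27 removed). Each mouse's cells were scored for doublets by scrublet in scanpy 1.11.5. Its automatic threshold called 45 cells (0.208%), so the expected rate of 0.8% per 1000 cells was used instead, which called 634 (2.93%) and left 21024 cells. Other neurons are kept cells outside the class with 10 or more UMIs from 5 or more of 10 pan-neuronal genes. In all 20492 neurons were kept, and 15 members of the class fell short of this gate.

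Counts were summed per mouse, the replicate. They were tested with edgeR 4.0.16 (TMM, filterByExpr, quasi-likelihood F test, R 4.3.3) in 1 fit of 6 mice, with Benjamini-Hochberg adjustment and a threshold of 0.05. The 9 genes of the rule were not tested, and some genes that the naming rule selects are not reported here. The biological coefficient of variation was 13.9%. With 2 mice per group, p-values rest on a pooled spread between mice. Intervals of counting error are not given, since differences are set against the spread between mice. Genes were named by rule. For the class, these are the 25 highest and 10 lowest ratios among genes at 50 CPM or more in every mouse. For variation, they are the 10 largest overdispersions among genes with 0.5 UMI or more per cell. For contrasts without calls, they are the 5 smallest p and up to 2 members per list and direction with an unadjusted p under 0.05. The members, gene lists and tests were chosen with earlier results of these data known. The split by Actb, its 40 genes, and leaving out Actb-high cells or cells with 5 or more Calca or S100b UMIs were chosen after the data were seen.

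Alternatives were DESeq2 1.42.0, limma-voom (limma 3.58.1), RLE size factors, a sex term, a fit with the low-count filter off, leaving out each mouse in turn, keeping called doublets, stricter cell filters (1000 genes, 10% mitochondrial UMIs), a stricter gate (5 UMIs from 3 genes), thinned sums and Mrgprd/Lpar3 neurons as the sole comparator. Simulated sums for all Ttpa-/- against wild type mice (9673 genes tested) had the same 14% variation in every gene. In them 50 genes each were changed by 1.5, 2, 4 and 8 times. Of the 49, 46, 48 and 47 of these that were tested, edgeR recovered 8, 30, 47 and 47. It also called 5 unchanged genes. For the interaction in that contrast (12522 genes) it recovered 2, 18, 48 and 50 of 50 and called 5 unchanged genes.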

Additional observations from a re-analysis of the deposited data

Results flagged for a closer look

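S100b differed between the class and all other neurons in its change between Ttpa-/- and wild type mice, with an interaction of -0.94 on the log2 scale (edgeR adjusted p = 0.0371). The class difference was -1.39. In other neurons S100b was at 360, 481, 519, 624, 373 and 870 CPM in mice 654, 657, 670, 671, 698 and 699 (a difference of -0.36). Wild type mouse 699 was highest in both populations. Without that mouse the interaction was -0.50 (edgeR adjusted p = 0.637). The part of the few S100b-rich cells in this difference was not tested. Groups of 2 mice are too small for a test of single outlying mice.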

How the results depend on the processing

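No paired analysis was possible because the replicate number is the mouse number, and the groups share none. The counts of called genes in the class stayed at 0 under RLE size factors, limma-voom, sex as a term, kept doublets, stricter cell filters, the stricter gate and thinned sums. They were 17, 38, 7 and 44 with no low-count filter (deficient, supplemented, deficient against supplemented, and all Ttpa-/- against wild type, the order used here) and 2 for supplemented and for all Ttpa-/- mice with DESeq2. Leaving out each mouse gave 0 to 7, 0 to 16, 0 to 9 and 0 to 14. Interaction calls were 2, 0, 4 and 2 against Mrgprd/Lpar3 neurons, 1, 0, 0 and 3 with doublets kept or with Actb-high cells left out, 10, 5, 4 and 16 with the stricter gate, and 0 in all 4 without cells rich in Calca or S100b. Leaving out each mouse gave 1 to 39, 0 to 21, 0 to 4 and 0 to 53, with 39 and 53 without mouse 698 and 0 in the last contrast without mouse 671; the cause was not tested.

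Cells rich in Calca or S100b were left out of the class alone and by counts of genes compared here, so for Calca and S100b that setting is fixed by its own construction and tests nothing. Under it the direction turned in the class for Gap43 (0.44 for deficient, 0.041 for deficient against supplemented) and S100b (0.093, 1.22 and 0.65 against wild type for deficient, supplemented and all Ttpa-/- mice). It turned in the interaction for S100b (0.53, 1.27 and 0.90), Tspan8 (0.33 for deficient, 0.59 for all Ttpa-/- mice) and Thy1 (0.0087 for all Ttpa-/- mice). The stricter gate turned the S100b interaction for deficient mice to 0.14. Leaving out each mouse ranged over 0 for Hbb-bs (-1.46 to 5.34 for deficient, -0.94 to 6.61 for supplemented), Hba-a1 (-4.18 to 6.13 for supplemented, -0.55 to 4.67 for all Ttpa-/- mice), Calca (-2.37 to 0.086 for supplemented), S100b (-1.72 to 0.27 for supplemented) and Apoe (-0.97 to 0.029 for deficient against supplemented). The difference in the share of the class between deficient and wild type mice (-0.956 percentage points) was 0.604 when thinned and -4.39 to 2.48 with a mouse left out. Against Mrgprd/Lpar3 neurons alone, 549 genes were over 2-fold higher and 330 lower in all 6 mice. Depth limits the class to genes with enough UMIs in every mouse.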
